A study of Arabidopsis thaliana with 37 samples.

Results

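In Arabidopsis thaliana seedlings, 71 of 6112 tested microarray probe sets were higher in the Ler wild type than in the Col wild type at both 9 and 21 days. They were chosen by measured values. The mean log2 signal of Ler had to exceed that of Col by at least 1 and every Ler array had to lie above every Col array, at 9 days (Ler) and at 21 days (the first Ler set, named Ler (1) in the labels). The rule was met by 72 probe sets, or 1.18% of those tested, and the probe set of AOP3 was set aside, as would have been any probe set of AT4G33720, of which 0 met the rule. On its own, the separation of the arrays held in 17.4% of tested probe sets at 9 days and in 8.77% at 21 days. The Ler minus Col values therefore describe the choice and carry no test.

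Total RNA of seedlings was hybridised to 37 one-colour arrays that hold 8247 probe sets each, with 1 sample on an array. The mutants carried the ago1-10 or ago1-11 allele of ARGONAUTE1 or the dcl1-9 allele of DICER-LIKE1, and the labels give no accession for them. At 9 days there were 4 arrays of ago1-10, 4 of ago1-11, 3 of Ler and 3 of Col. At 21 days there were 3 arrays of ago1-10, 3 of ago1-11, 4 of dcl1-9, 3 of Ler (1), 4 of a second Ler set named Ler (2), and 3 of Col. A further 3 arrays held ago1-10 at 35 days. Each array also has a strain label, and the codes that open it differ within some groups. In ago1-10 the code was MR44 on 3 arrays and MR49 on 1 at 9 days, MR44 on all 3 at 21 days and MR49 on all 3 at 35 days. In ago1-11 it was MR51, MR53, MR54 and MR57 on 1 array each at 9 days (replicates 1 to 4) and MR57 on all 3 at 21 days. In dcl1-9 it was caf21, in Ler and Ler (1) MR37, in Col MR38, and in Ler (2) WT21 on 3 arrays and Ler21 on replicate 4. What the codes stand for is not stated, and arrays of a group are treated as its replicates. No treatment is named for any group, and nothing in the labels says whether a sample was 1 seedling or a pool. The samples are called biological replicates, and the p-values reflect no more than the spread among these samples, which may be technical.

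Ler (Landsberg erecta) and Col (Columbia) are the inbred laboratory accessions of Arabidopsis in widest use. Their genomes differ by single-base changes, insertions, deletions and genes present in one accession and missing or altered in the other, and many genes differ in RNA level between them. DCL1 cuts most plant microRNAs out of their precursors, and AGO1 binds microRNAs and cleaves the RNAs they match, so many genes change in RNA level in their mutants. The signal of a probe set depends on the amount of its RNA and on how well that RNA matches short probes, and these cannot be told apart between accessions in these data. In whole seedlings, fewer cells of a type and less RNA per cell cannot be told apart either.

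All values below are scaled signals, the deposited signal multiplied by 1 factor per array so that every array has the same median of 36.2. Array medians before scaling were between 19.4 and 58.2. A signal of at most 33.7% of that median is called near background here, the level of the filter on low values. Differences are on the log2(scaled signal + 1.2) scale. Replicates within a group correlated with an r across probe sets of at least 0.862, lowest in ago1-10 at 35 days, and no 2 arrays were identical. Of the seedling tissue markers, 4 of 7 green-tissue genes had a probe set and all were bright (RCA, the activase of Rubisco, averaged 5346 in Ler and 3799 in Col at 9 days), while 3 of 6 flower and pollen genes and 0 of 3 seed genes had one. At 9 days ACT11 averaged 76.4 in Ler and 40.2 in Col, and TUA1 61.6 and 104, all above the median. ROXY1, at 5.87 and 6.75, was near background. In 1 ago1-10 array at 21 days (replicate 3) and 1 at 35 days (replicate 1) the number in the array title goes against the age in the label, so results that use them are also given with the pair exchanged.

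Of the 71 probe sets, 20 match 1 gene in the platform annotation and represent 19 loci, 2 match several genes, and 49 are not listed there and are called by their probe set ID. Over all tested probe sets, 55.1% are not listed. The 19 loci lie on chromosomes 1 to 5 with 5, 7, 1, 5 and 1 loci, against 569, 943, 133, 787 and 121 of 2557 tested loci, and no 2 of them are neighbouring genes. By the suffix of their IDs, 19 of the 71 (26.8%) are of the _s type, which can detect several transcripts, against 19.3% of all tested. In 32 of the 71 (45.1%), both Col means were near background, against 15.6% of all tested, so for these the size of the difference depends on the constant added before log2. The choice of members required Col to be the lower, so these shares are a description. With 16 added in place of 1.2, 26 probe sets met the rule, all of them among the 71.

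The Ler minus Col difference had a median of 1.74 at 9 days, with a range of 1.01 to 6.89, and a median of 1.63 at 21 days, with a range of 1.01 to 6.45. It was 2 or more in 30 probe sets at 9 days and in 24 at 21 days. Just inside the threshold, by the smaller of the 2 differences, lay 17577_g_at, AT4G36180 (16326_at) and 12642_at, each at 1.01. Just outside lay 12916_at and 13228_at at 0.98 and 12744_at at 0.99.

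Of the 6 probe sets with the largest mean difference among those with both Ler means above background, 12761_s_at was the brightest. At 9 days it read 2276, 1594, 1457 and 1714 in ago1-10, 2382, 1077, 1591 and 1049 in ago1-11, 1096, 1515 and 1151 in Ler, and 10.2, 18.9 and 20.8 in Col. At 21 days the mutants read 667, 1689.9 and 1784 in ago1-10, 1898, 2001 and 2899 in ago1-11, and 3024, 1993, 2269 and 1986 in dcl1-9, against 2839, 3971 and 2666 in Ler (1), 1497, 1711, 1987 and 2048 in Ler (2), and 30.4, 38.4 and 34.8 in Col. Every array other than Col was at least 413, that value being replicate 1 of ago1-10 at 35 days, whose arrays read 413, 1303 and 2044, and no Col array passed 38.4. The Ler minus Col difference was 6.18 at 9 days and 6.45 at 21 days.

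AT2G13770 (17133_at), on chromosome 2, was the only one of these 6 with a single gene. At 9 days it read 125, 76.2, 115 and 109.6 in ago1-10, 51.4, 91.9, 67.3 and 52.4 in ago1-11, 55.2, 41.4 and 50.9 in Ler, and 0.516, 0.599 and 0.315 in Col. At 21 days it read 80.1, 69.6 and 53.7 in ago1-10, 51.4, 84.3 and 56.3 in ago1-11, and 93.8, 64.2, 73.2 and 76.2 in dcl1-9 and 53.2, 39.2 and 41.4 in Ler (1), 74.9, 64.5, 82.7 and 67.1 in Ler (2), and 0.424, 0.537 and 0.617 in Col. The ago1-10 arrays at 35 days read 89.5, 71.9 and 65.6. Each Col array was under 1 and every other array was at least 39.2, so its Ler minus Col differences of 4.90 and 4.72 compare a measured level with values near background.

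The 14633_at signal separated the wild types and also the mutants. At 9 days it read 455, 322, 526 and 657 in ago1-10, 560.2, 573, 245 and 546 in ago1-11, 45.2, 19.6 and 27.3 in Ler, and 0.859, 1.08 and 1.05 in Col. At 21 days the mutants read 189, 275 and 714 in ago1-10, 365, 458 and 449 in ago1-11, and 3.67, 7.11, 4.94 and 1.98 in dcl1-9, against 96.1, 197 and 115 in Ler (1), 30.3, 21.7, 46.5 and 12.8 in Ler (2), and 1.13, 1.07 and 0.617 in Col. The ago1-10 arrays at 35 days read 154, 273 and 462. Both ago1 alleles lay above every Ler array of the same age except that ago1-10 replicate 1, at 189, lay under the highest Ler (1) array, at 197, while dcl1-9 lay below all 4 Ler (2) arrays and above all Col arrays.

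**Figure D1:**
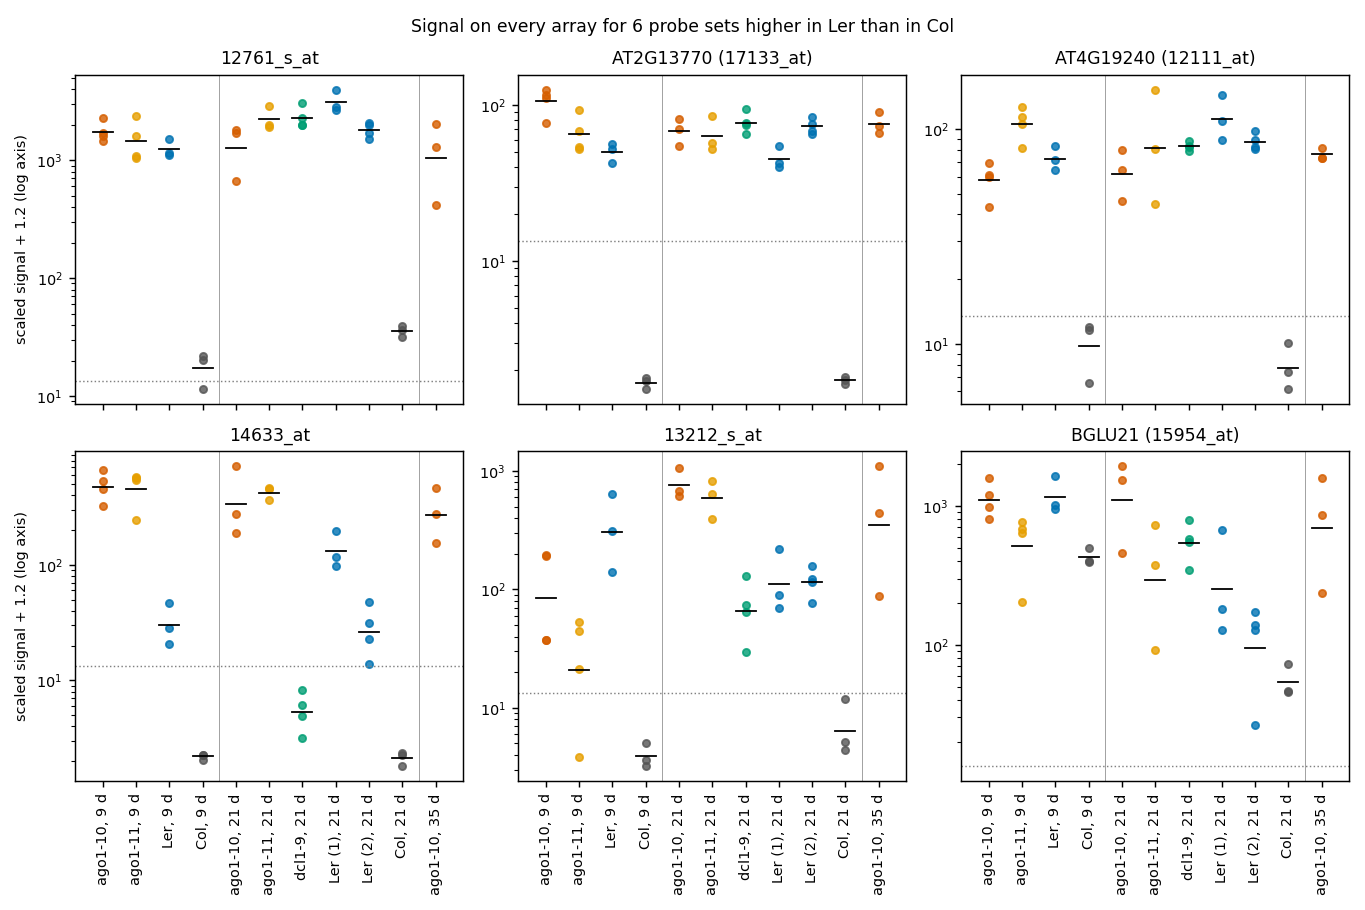
Scaled signal plus 1.2 (log axis) on every array for 6 probe sets that were higher in Ler than in Col. Points are arrays and short bars are group means on the log2 scale. The dotted line is the level of the filter on low values, called near background in the text, and no background was measured. In 12761_s_at, AT2G13770 and AT4G19240 every group other than Col sits far above Col, whereas 14633_at, 13212_s_at and BGLU21 also differ between mutants, Ler sets or ages.

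The other 3 of the 6, 14704_s_at, 13212_s_at and 15846_at, were on average lower in both ago1 alleles than in Ler at 9 days, and higher at 21 days. At 9 days 14704_s_at read 193, 31.6, 2.17 and 56.2 in ago1-10, 126, 22.01, 33.2 and 2.56 in ago1-11, 117, 611 and 373 in Ler, and 1.03, 2.04 and 1.05 in Col. At 21 days it read 449, 519.6 and 593 in ago1-10, 1029, 380.5 and 421 in ago1-11, and 299, 66.8, 72.4 and 102 in dcl1-9 and 74.7, 260.4 and 74.4 in Ler (1), 249.6, 229.7, 121 and 93.8 in Ler (2), and 2.40, 32.5 and 2.77 in Col. In 13212_s_at the 9-day arrays read 195, 36.4, 36.4 and 188 in ago1-10, 43.3, 51.6, 20.2 and 2.68 in ago1-11, 140.2, 633 and 307 in Ler, and 3.87, 2.04 and 2.42 in Col. At 9 days the ago1-10 and Ler arrays overlapped in both probe sets, and at 21 days every ago1-10 and ago1-11 array was above every Ler (1) and Ler (2) array. The 21-day arrays of 13212_s_at read 615, 672 and 1049 in ago1-10, 633, 388 and 825 in ago1-11, and 129, 28.2, 63.7 and 71.9 in dcl1-9 and 87.9, 220.1 and 68.4 in Ler (1), 158, 121, 75.0 and 115 in Ler (2), and 3.96, 10.6 and 3.19 in Col. The 9-day arrays of 15846_at read 101.5, 32.6, 19.2 and 43.2 in ago1-10, 82.8, 27.6, 26.4 and 3.65 in ago1-11, 59.8, 338 and 261 in Ler, and 9.19, 6.71 and 1.37 in Col. Its 21-day arrays read 308, 306 and 379 in ago1-10, 594, 199.8 and 322 in ago1-11, and 176, 45.9, 42.5 and 59.7 in dcl1-9 and 41.2, 182 and 49.8 in Ler (1), 164, 120.3, 88.0 and 60.3 in Ler (2), and 2.12, 27.4 and 3.29 in Col. In 15846_at too, both alleles exceeded every Ler array at 21 days and overlapped Ler at 9 days. At 35 days ago1-10 read 124, 697 and 1366 in 14704_s_at, 86.3, 1095 and 444 in 13212_s_at and 130.1, 485 and 975 in 15846_at, with replicate 1 the lowest each time.

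**Figure D2:**
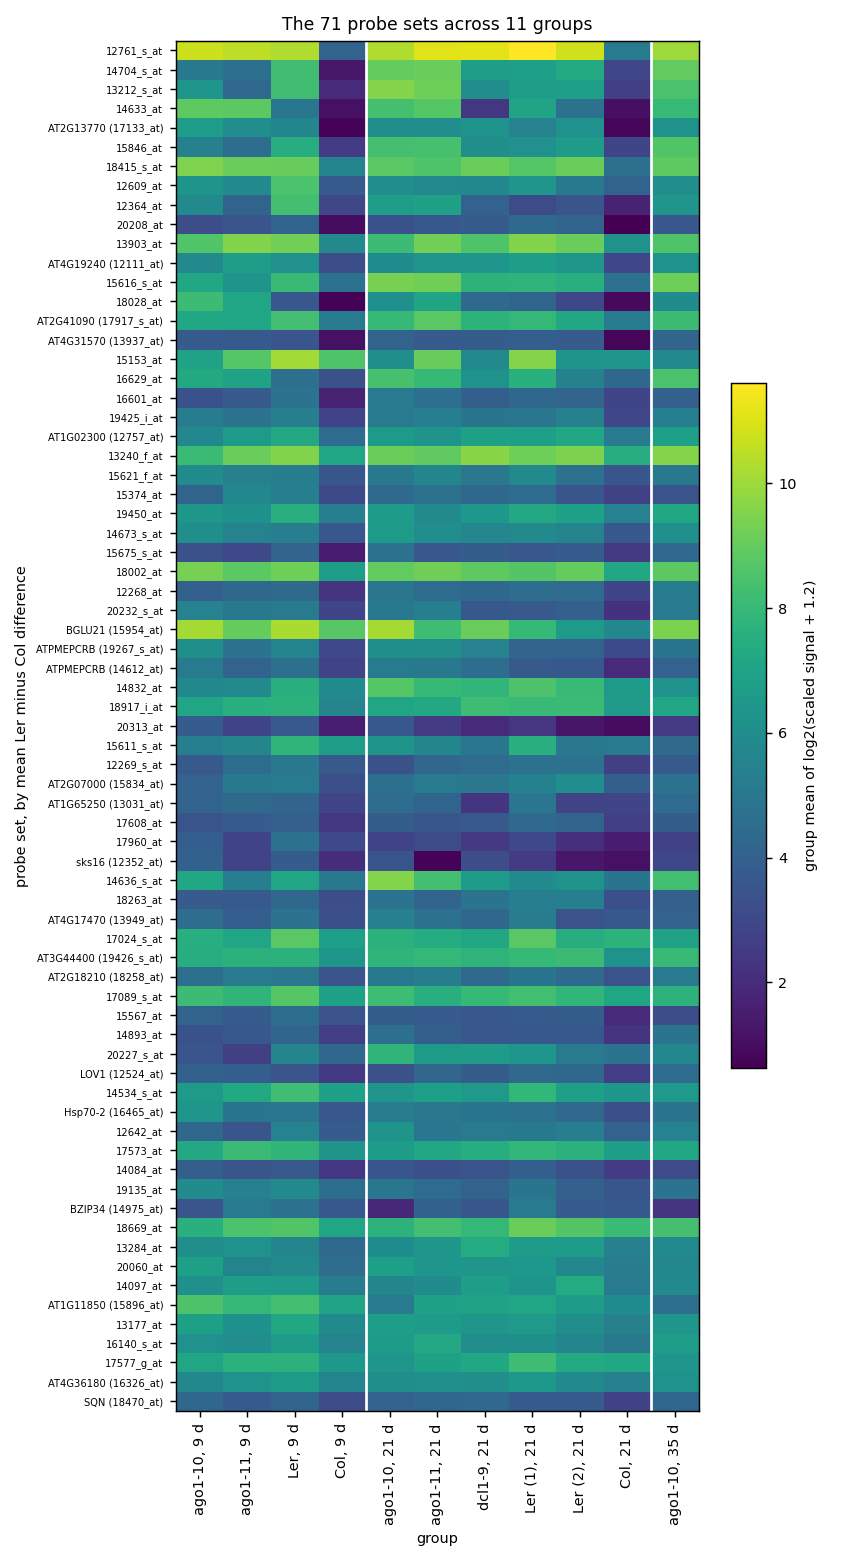
Group mean of log2(scaled signal + 1.2) (colour) for the 71 probe sets (down the page, by mean Ler minus Col difference) in the 11 groups (across). The Col columns are the darkest at each age, and probe sets such as 14633_at and 12364_at vary widely among the groups other than Col.

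Among members with a gene symbol, LOV1 (12524_at, AT1G10920) encodes a nucleotide-binding leucine-rich repeat receptor of the immune system, known for sensitivity to the fungal toxin victorin. Its signals were low: at 9 days it averaged 10.3 ± 0.846 in Ler and 4.71 ± 2.07 in Col (SD, n = 3 each), and at 21 days 21.4 ± 8.20 in Ler (1) and 5.45 ± 3.02 in Col (SD, n = 3 each). Ler at 9 days and Col at both ages were thus near background, and the difference of 1.02 at 9 days lies between values near background.

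The cell wall members were ATPMEPCRB (AT4G02330), a pectin methylesterase, and sks16 (12352_at, AT2G23630), a protein related to multicopper oxidases. ATPMEPCRB is represented by a pair of probe sets, 19267_s_at and 14612_at. The first averaged 46.8 ± 10.7 in Ler against 7.81 ± 3.85 in Col at 9 days, and 19.0 ± 10.2 in Ler (1) against 7.51 ± 2.29 in Col at 21 days (SD, n = 3 each). The second averaged 24.8 ± 3.21 in Ler against 6.18 ± 1.70 in Col at 9 days, and 12.004 ± 1.05 in Ler (1) against 3.88 ± 4.47 in Col at 21 days (SD, n = 3 each). Both probe sets gave the same direction at both ages, which the choice of members required, so the second is no separate support. The sks16 arrays read 13.0, 16.3 and 10.1 in Ler, and 3.95, 0.599 and 6.52 in Col at 9 days and 2.67, 6.16 and 6.34 in Ler (1), and 1.13, 1.16 and 0.719 in Col at 21 days, levels near background in both accessions at 21 days.

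BGLU21 (15954_at, AT1G66270), a beta-glucosidase, was the brightest member with a gene symbol. At 9 days it read 1203, 1594, 801 and 986 in ago1-10, 637, 686, 764 and 203 in ago1-11, 953, 1643 and 1018 in Ler, and 401, 396 and 497 in Col. At 21 days the mutants read 1538, 1935 and 461 in ago1-10, 730.4, 90.02 and 373 in ago1-11, and 787, 347, 578 and 549.6 in dcl1-9, against 127, 676 and 179.6 in Ler (1), 25.1, 137, 126 and 171 in Ler (2), and 44.5, 45.2 and 71.8 in Col. The Ler arrays were above the Col arrays by 1.44 at 9 days and by 2.22 at 21 days, but at 21 days 1 Ler (2) array (replicate 1) was below every Col array.

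Of the chaperone members, SQN (18470_at, AT2G15790) encodes cyclophilin 40, which is known to promote AGO1 activity, and Hsp70-2 (16465_at, AT5G02490) is a cytosolic heat shock protein of the 70-kDa class. SQN averaged 16.6 ± 1.36 in Ler against 8.06 ± 3.45 in Col at 9 days, and 13.5 ± 4.59 in Ler (1) against 5.97 ± 1.75 in Col at 21 days (SD, n = 3 each). Its group means outside Col spanned 0.63 on the log2 scale, the narrowest range of the 71. Hsp70-2 averaged 30.0002 ± 5.40 in Ler against 12.7 ± 7.37 in Col at 9 days, and 26.8 ± 11.8 in Ler (1) against 9.51 ± 4.45 in Col at 21 days (SD, n = 3 each). A second probe set of Hsp70-2, 16916_s_at, gave a Ler minus Col difference of -1.56 at 9 days and 2.22 at 21 days with 3 of its 4 wild-type means near background, so the probe sets of this gene disagree at 9 days.

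BZIP34 (14975_at, AT2G42380), a transcription factor of the basic leucine zipper class, averaged 27.0 ± 9.43 in Ler against 11.6 ± 1.88 in Col at 9 days, and 35.01 ± 12.7 in Ler (1) against 11.6 ± 3.71 in Col at 21 days (SD, n = 3 each). Its Ler (2) arrays read 17.9, 8.93, 13.1 and 12.6 and overlapped Col, so Ler (2) did not share the higher level of Ler (1).

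The remaining single-gene members carry a locus name and no symbol in the annotation. The largest differences among them were those of AT2G13770, of AT4G19240 (12111_at) with 2.90 and 3.85 at 9 and 21 days, and of AT2G41090 (17917_s_at) with 3.20 and 2.83. Next came those of AT4G31570 (13937_at) with 2.40 and 3.15, and of AT1G02300 (12757_at) with 2.77 and 1.65. Smaller differences were found in AT2G07000 (15834_at) with 1.84 and 1.52, AT1G65250 (13031_at) with 1.31 and 2.03, and AT4G17470 (13949_at) with 1.49 and 1.63. They were also smaller in AT3G44400 (19426_s_at) with 1.25 and 1.73, and AT2G18210 (18258_at) with 1.48 and 1.48. The smallest were those of AT1G11850 (15896_at) with 1.28 and 1.11 and of AT4G36180 (16326_at) with 1.01 and 1.07.

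AT4G19240 (12111_at) read 42.2, 59.6, 58.8 and 67.9 in ago1-10, 125, 80.7, 105 and 112 in ago1-11, 82.1, 70.5 and 63.1 in Ler, and 10.8, 10.4 and 5.36 in Col at 9 days. At 21 days it read 44.7, 63.2 and 78.5 in ago1-10, 43.6, 79.0 and 151 in ago1-11, and 82.3, 86.3, 78.0 and 81.4 in dcl1-9 and 107, 142 and 87.1 in Ler (1), 96.5, 80.8, 87.9 and 79.7 in Ler (2), and 4.95, 6.18 and 8.84 in Col. All arrays other than Col were at least 42.2 and no Col array passed 10.8, at either age. AT2G41090 (17917_s_at) varied far more between replicates, with 159.6, 512 and 404 in Ler, and 39.0, 41.8 and 23.7 in Col at 9 days and 101.3, 636 and 233 in Ler (1), 258, 166, 151 and 66.9 in Ler (2), and 20.9, 35.1 and 52.1 in Col at 21 days. The choice of members required the Ler and Ler (1) arrays to lie above Col. The Ler (2) arrays, which the choice did not use, also lay above Col, the lowest at 66.9 against a highest Col array of 52.1.

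Set beside Col, the mutants and the second Ler set were mostly on the Ler side. In Ler (2), all 4 arrays lay above all Col arrays in 51 of the 71 probe sets (9.02% of all tested) and all lay below them in 0 (13.1%). At 9 days all ago1-10 arrays lay above all Col arrays in 55 probe sets (19.9% of all tested) and all ago1-11 arrays in 45 (10.7%). At 21 days the count was 56 in ago1-10 (18.7%), 57 in ago1-11 (13.2%) and 54 in dcl1-9 (12.8%). Arrays all below Col were found at 9 days in 1 probe set for ago1-10 (17.9% of all tested) and 2 for ago1-11 (11%), and at 21 days in 0 for ago1-10 (20.6%), 1 for ago1-11 (13.5%) and 1 for dcl1-9 (17.8%). The Col arrays were also those that the choice of members used, so these counts are a description, and these comparisons share the Col arrays.

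The median difference from Col over the 71 probe sets was 1.497 in ago1-10 and 1.46 in ago1-11 at 9 days, and 1.78 in ago1-10, 1.64 in ago1-11, 1.53 in dcl1-9 and 1.33 in Ler (2) at 21 days. Measured against Ler instead, the medians were -0.52 in ago1-10 and -0.42 in ago1-11 at 9 days. Against Ler (1) at 21 days they were 0.09 in ago1-10, -0.14 in ago1-11, -0.21 in dcl1-9 and -0.35 in Ler (2). The choice of members used the Ler and Ler (1) arrays, so these medians too are a description.

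**Figure D3:**
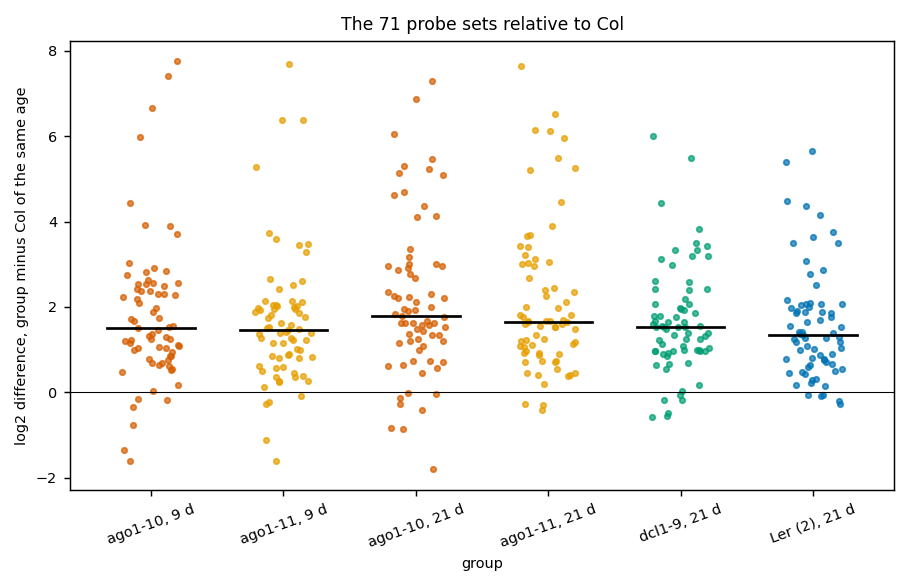
Log2 difference from Col of the same age (vertical axis) for each of the 71 probe sets (points) in 6 groups that did not choose the members; the bars are medians, from 1.33 in Ler (2) to 1.78 in ago1-10 at 21 days. Most points lie above 0 in every group, with a few below.

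In 24 of the 71 probe sets, every array other than Col, mutants and both Ler sets included, lay above every Col array of its age, that is 11 arrays at 9 days and 17 at 21 days. Over all tested probe sets this held for 31, or 0.507%. The choice itself required it of Ler and Ler (1). The 6 of the 24 with a single gene were AT2G13770, AT4G19240, AT2G41090, AT4G31570, AT1G02300 and AT3G44400. AT3G44400 (19426_s_at), on chromosome 3, read 142, 178, 194 and 202 in ago1-10, 178, 195, 191 and 249 in ago1-11, 275, 176 and 177 in Ler, and 109, 62.5 and 91.2 in Col at 9 days. At 21 days it read 189, 223 and 271 in ago1-10, 275, 264 and 191 in ago1-11, and 241, 215, 223 and 199 in dcl1-9, and 272, 183 and 319 in Ler (1), 315, 268, 239.7 and 293 in Ler (2), and 78.0, 94.0 and 56.9 in Col. Its lowest array outside Col was 142 at 9 days and 183 at 21 days, and its highest Col array was 109.

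How much a probe set varied among the 9 groups other than Col differed between members. The range of the 9 group means had a median of 1.69 on the log2 scale, from 0.63 to 6.49, against a median of 1.10 over all tested probe sets. The 9 groups include Ler and Ler (1), whose arrays chose the members, so the 2 medians are a description. It was under 1 in 11 members, among them AT3G44400, AT4G31570, AT4G19240, AT2G18210, AT4G36180 and SQN, and 4 or more in 9 members, all of them not listed in the annotation. The widest was 14633_at at 6.49, highest in ago1-10 at 9 days and lowest in dcl1-9.

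The second Ler set did not share every difference of the first. Its mean lay 1 or more below Ler (1) in 16 of the 71 and 1 or more above it in 1, 14097_at. It lay below the Col mean in 5: 15153_at, 15611_s_at, AT1G65250 (13031_at), AT4G17470 (13949_at) and 17024_s_at. The choice of members required high Ler (1) and low Col arrays and did not use Ler (2), so these counts are a description. Their shares over all tested probe sets are not given here. The 15153_at arrays read 676, 1016 and 652 in Ler (1), 40.0, 35.9, 126 and 201 in Ler (2), and 112, 64.4 and 76.4 in Col at 21 days, so every Ler (1) array was far above Col while Ler (2) overlapped Col. AT4G17470 read 35.4, 46.7 and 32.4 in Ler (1), 7.85, 9.75, 6.04 and 18.2 in Ler (2), and 19.6, 11.1 and 6.47 in Col, and there too Ler (2) overlapped Col. With Ler (2) in place of Ler (1) in the rule, 52 probe sets met it and 42 of them were among the 71.

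Against Ler (2), whose arrays the choice of members did not use, 22 of the 71 probe sets were higher in ago1-10 at 21 days (11.9% of all tested) and 10 were lower (12.9%). In ago1-11, 14 were higher (6.59%) and 2 lower (4.94%), and in dcl1-9 1 was higher (0.638%) and 1 lower (0.147%). The 3 comparisons share the Ler (2) arrays, and Ler (2) arrays were on average lower than Ler (1) in these probe sets, with a median of -0.35. The median difference from Ler (2) over the 71 was 0.48 in ago1-10 (0.02 over all tested), 0.27 in ago1-11 (0.04) and 0.01 in dcl1-9 (-0.03). Calls are at an adjusted p under 0.05 in limma, over all tested probe sets, and ± after a log2 difference is its SE.

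By adjusted p, the first of the probe sets higher in both alleles were 14633_at, 18028_at and 16629_at. By size, 12364_at also stood high, with 3.24 ± 0.81, adjusted p = 0.00278, in ago1-10 and 3.40 ± 0.81, adjusted p = 0.00469, in ago1-11. For 14633_at, whose arrays are given above, ago1-10 exceeded Ler (2) by 3.67 ± 0.41, adjusted p = 9.56e-08, and ago1-11 by 4.01 ± 0.41, adjusted p = 7.63e-08. For 18028_at the arrays read 64.6, 93.5 and 54.1 in ago1-10, 71.7, 125 and 255 in ago1-11, 30.5, 17.8, 12.1 and 23.1 in dcl1-9, and 7.46, 4.32, 7.84 and 8.37 in Ler (2), with no overlap between either allele and Ler (2). Its difference was 3.13 ± 0.40, adjusted p = 8.01e-07, in ago1-10 and 4.05 ± 0.40, adjusted p = 6.93e-08, in ago1-11. For 16629_at the arrays read 194, 235 and 857 in ago1-10, 176, 351 and 258 in ago1-11, 104, 76.6, 60.2 and 59.9 in dcl1-9, and 47.7, 36.1, 46.8 and 41.7 in Ler (2), and again all ago1 arrays were above all Ler (2) arrays. Its difference was 2.95 ± 0.44, adjusted p = 8.08e-06, in ago1-10 and 2.52 ± 0.44, adjusted p = 0.000227, in ago1-11. Its Ler (1) arrays averaged 202, against 43.1 in Ler (2). Set beside Ler (1), with no test, its difference was only 0.84 in ago1-10 and 0.41 in ago1-11. The values beside Ler (1) were 1.36 and 1.69 for 14633_at, and 1.97 and 2.89 for 18028_at. At 9 days the same 3 probe sets were also higher in the alleles than in Ler by 1 or more, as values with no test. The values were 3.98 in ago1-10 and 3.92 in ago1-11 for 14633_at, 4.52 and 3.49 for 18028_at, and 2.62 and 2.27 for 16629_at.

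Ler (2) and Ler (1) do not give the same direction for every call. Of the 22 higher in ago1-10 than in Ler (2), 2 were lower than in Ler (1) by their means, and of the 14 in ago1-11, 4 were. Among single-gene members, AT4G17470 (13949_at) was higher in both alleles than in Ler (2), by 1.99 ± 0.35, adjusted p = 5.98e-05, in ago1-10 and by 1.31 ± 0.35, adjusted p = 0.0108, in ago1-11. Its arrays read 24.4, 60.1 and 49.8 in ago1-10, 20.8, 29.5 and 27.9 in ago1-11, 34.2, 15.0, 18.8 and 11.4 in dcl1-9, and 7.85, 9.75, 6.04 and 18.2 in Ler (2) and the ago1 arrays did not overlap Ler (2). Set beside Ler (1), the difference was 0.15 in ago1-10 and -0.53 in ago1-11, so the direction turned in ago1-11. AT1G65250 (13031_at) was higher than in Ler (2) by 1.69 ± 0.41, adjusted p = 0.00231, in ago1-10 and by 1.298 ± 0.41, adjusted p = 0.0348, in ago1-11. Its arrays read 14.7, 21.5 and 34.8 in ago1-10, 19.96, 15.1 and 15.4 in ago1-11, 4.23, 3.95, 4.61 and 2.87 in dcl1-9, and 3.83, 3.42, 4.82 and 18.8 in Ler (2), and Ler (2) replicate 4, at 18.8, overlapped both alleles. Set beside Ler (1), it was -0.40 in ago1-10 and -0.80 in ago1-11, so the direction turned in both alleles. Both probe sets of the pectin methylesterase ATPMEPCRB rose in both alleles. The first, 19267_s_at, differed by 1.92 ± 0.48, adjusted p = 0.00308, in ago1-10 and by 1.87 ± 0.48, adjusted p = 0.00947, in ago1-11, and the second, 14612_at, by 1.48 ± 0.41, adjusted p = 0.00673, in ago1-10 and by 1.42 ± 0.41, adjusted p = 0.0207, in ago1-11. In 19267_s_at the arrays read 96.3, 165 and 18.8 in ago1-10, 46.6, 69.5 and 85.3 in ago1-11, 62.8, 36.8, 39.8 and 41.9 in dcl1-9, and 21.7, 23.8, 16.5 and 9.39 in Ler (2), with ago1-10 replicate 3 at 18.8 inside the Ler (2) range.

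BGLU21 and sks16 rose in ago1-10. BGLU21 (15954_at) differed from Ler (2) by 3.56 ± 0.65, adjusted p = 0.000104, in ago1-10 and by 1.63 ± 0.65, adjusted p = 0.101, in ago1-11, so only the first passed the threshold. For sks16 (12352_at) the arrays read 17.6, 12.3 and 4.22 in ago1-10, 0.832, 0.237 and 0.321 in ago1-11, 9.83, 3.09, 9.75 and 12.8 in dcl1-9, and 3.83, 0.67, 0.245 and 1.94 in Ler (2), with 2.12 ± 0.60, adjusted p = 0.00818, in ago1-10 and -0.64 ± 0.60, adjusted p = 0.545, in ago1-11. All ago1-11 arrays of sks16 were under 1, below the Ler (1) arrays and near the Col arrays.

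Of the members lower in ago1-10 than in Ler (2), 14097_at was lower by -1.69 ± 0.29, adjusted p = 4.78e-05, in ago1-10 and by -1.44 ± 0.29, adjusted p = 0.00107, in ago1-11. Its arrays read 33.3, 62.1 and 59.4 in ago1-10, 61.5, 78.6 and 43.9 in ago1-11, 68.4, 138, 128 and 100.2 in dcl1-9, and 216, 135, 162 and 151 in Ler (2), without overlap between the alleles and Ler (2). For 12269_s_at the difference was -1.43 ± 0.31, adjusted p = 0.000737, in ago1-10, whose arrays read 7.37, 6.24 and 15.2, against 22.5, 29.1, 30.5 and 23.5 in Ler (2). AT1G11850 (15896_at) was lower by -1.62 ± 0.41, adjusted p = 0.00294, in ago1-10, whose arrays read 34.5, 23.5 and 43.6, against 82.4, 122, 119 and 96.2 in Ler (2), without overlap. BZIP34 (14975_at) was lower by -1.97 ± 0.50, adjusted p = 0.00326, in ago1-10, whose arrays read 0.943, 0.642 and 10.2, against 17.9, 8.93, 13.1 and 12.6 in Ler (2), with replicate 3 inside the Ler (2) range. Without ago1-10 replicate 2 its difference was -1.495 with an adjusted p of 0.0519. AT2G07000 (15834_at) was lower in ago1-10 by -1.34 ± 0.35, adjusted p = 0.00389, and AT1G02300 (12757_at) lower in ago1-11 by -0.83 ± 0.27, adjusted p = 0.042, a call lost without any 1 of ago1-11 replicates 1 and 3 or the 4 Ler (2) arrays, with adjusted p of 0.0650 to 0.169, and under quantile normalization, at 0.0723.

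**Figure D4:**
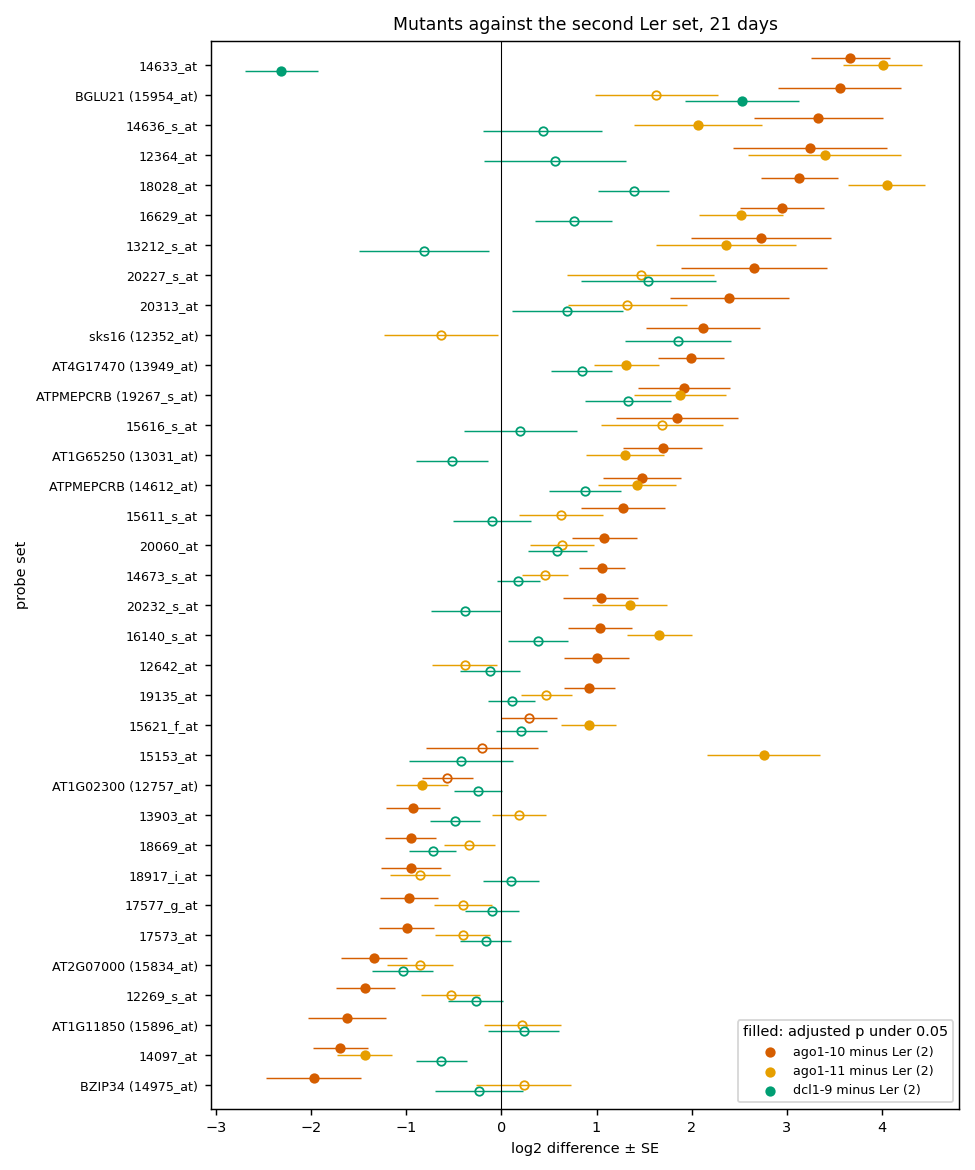
Log2 difference from Ler (2) at 21 days (horizontal axis, bars are SE) for the 35 probe sets called in at least 1 mutant, one line each; filled points have an adjusted p under 0.05. The ago1-10 and ago1-11 points lie mostly on the same side, and only 14633_at and BGLU21 are filled for dcl1-9, on opposite sides.

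In dcl1-9, BGLU21 (15954_at) was higher than in Ler (2) by 2.53 ± 0.60, adjusted p = 0.0327, and 14633_at was lower by -2.31 ± 0.38, adjusted p = 0.000877. The BGLU21 arrays read 787, 347, 578 and 549.6 in dcl1-9, against 25.1, 137, 126 and 171 in Ler (2), and did not overlap. With 3-decimal readings missing the difference was 2.35 with an adjusted p of 0.0810. The call also depended on single arrays: the difference was 1.91 with an adjusted p of 0.203 without Ler (2) replicate 1, and the adjusted p was between 0.0535 and 0.161 without Ler (2) replicate 3 or dcl1-9 replicates 1, 3 or 4. The 14633_at arrays read 3.67, 7.11, 4.94 and 1.98 in dcl1-9, against 30.3, 21.7, 46.5 and 12.8 in Ler (2), and did not overlap either. Its dcl1-9 level is near background, and with 16 added before log2 the difference was -1.05 with an adjusted p of 0.134. With only the 8 dcl1-9 and Ler (2) arrays in the fit, 8 of the 71 were called. The share of all tested probe sets called in that fit is not given here.

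The difference between the alleles is taken from ago1 arrays alone, with the spread estimated over all 37 arrays. At 9 days, 10 of the 71 were higher in ago1-11 than in ago1-10 (7.17% of all tested) and 5 were lower (6.71%). At 21 days, 4 were higher (4.73%) and 2 lower (2.6%). The median difference over the 71 was -0.31 at 9 days and -0.06 at 21 days, against 0.0044 and 0.0030 over all tested.

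At 9 days, AT4G19240 (12111_at) and 13903_at were higher in ago1-11 without overlap. AT4G19240 differed by 0.88 ± 0.26, adjusted p = 0.0199, on the arrays given above. The 13903_at arrays read 935, 708, 659 and 669 in ago1-11, and 424, 341, 366 and 475 in ago1-10, with a difference of 0.88 ± 0.26, adjusted p = 0.022. BZIP34 (14975_at) read 45.7, 24.1, 31.1 and 38.2 in ago1-11, and 10.6, 4.496, 13.7 and 15.4 in ago1-10 and differed by 1.63 ± 0.46, adjusted p = 0.0167. For 18669_at the arrays read 636, 269.6, 263 and 392 in ago1-11, and 207, 159.8, 209.7 and 206 in ago1-10 and the difference was 0.90 ± 0.25, adjusted p = 0.0135. All 4 of these separated the alleles on every array. Lower in ago1-11 were 20060_at, with 46.6, 60.6, 49.4 and 32.3 in ago1-11, and 171, 94.5, 114 and 96.7 in ago1-10 and a difference of -1.31 ± 0.31, adjusted p = 0.0052, and Hsp70-2 (16465_at), with 31.7, 46.0, 33.9 and 12.8 in ago1-11, and 44.9, 102, 150.3 and 61.9 in ago1-10 and -1.48 ± 0.40, adjusted p = 0.0118. So was AT2G13770 (17133_at), by -0.70 ± 0.20, adjusted p = 0.0187. In AT2G13770 and Hsp70-2 the highest ago1-11 array reached the ago1-10 range. For 13212_s_at the difference was -2.02 ± 0.68, adjusted p = 0.0438.

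These allele calls at 9 days were sensitive to single arrays and, for some, to the model. AT4G19240 (12111_at) lost its call without ago1-10 replicate 1 or ago1-11 replicates 1 or 4 (differences of 0.74 to 0.84). BZIP34 lost it without ago1-10 replicate 2 or ago1-11 replicates 1 or 4 (1.29 to 1.57). So did 13903_at without ago1-10 replicates 2 or 3 or ago1-11 replicate 1 (0.77 to 0.84), and 18669_at without ago1-11 replicate 1 (0.64). Hsp70-2 lost its call without ago1-10 replicate 3 or ago1-11 replicate 4 (-1.18 and -1.12), and AT2G13770 without ago1-10 replicates 1 or 3 or ago1-11 replicates 1 or 4 (-0.66 to -0.60). For 13212_s_at it was lost without ago1-10 replicates 1 or 4 or ago1-11 replicates 3 or 4 (-2.03 to -1.20). It was also lost with 16 added before log2 (adjusted p = 0.0755), with no filter (0.0592) and with only the groups compared in the fit (0.0898), which also ended the call of AT2G13770 (0.0834). The call of 20060_at held in every setting run.

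At 21 days 15153_at was higher in ago1-11 by 2.96 ± 0.63, adjusted p = 0.00367, with arrays at 409.6, 662 and 561 in ago1-11, and 49.8, 46.9 and 132 in ago1-10 that did not overlap. AT1G11850 (15896_at) was higher by 1.84 ± 0.43, adjusted p = 0.00746, with 158, 84.8 and 131 in ago1-11, and 34.5, 23.5 and 43.6 in ago1-10, also without overlap. BZIP34 was again higher in ago1-11, by 2.21 ± 0.53, adjusted p = 0.00877, with arrays at 6.99, 20.9 and 23.4 in ago1-11, and 0.943, 0.642 and 10.2 in ago1-10, and 13903_at by 1.12 ± 0.30, adjusted p = 0.0197, with 530.2, 636 and 698 in ago1-11, and 214, 233 and 460.2 in ago1-10. In BZIP34 the lowest ago1-11 array was under the highest ago1-10 array. Lower in ago1-11 were sks16 (12352_at), by -2.76 ± 0.64, adjusted p = 0.00688, and 12642_at, by -1.38 ± 0.36, adjusted p = 0.0156, with arrays at 37.9, 16.2 and 39.8 in ago1-11, and 71.7, 100.04 and 66.3 in ago1-10. With only the groups compared in the fit, 4 of these 6 calls were lost at the same differences, with an adjusted p of 0.153 for BZIP34, 0.131 for 13903_at, 0.0854 for sks16 and 0.0903 for 12642_at. Calls also depended on single arrays. For 12642_at the adjusted p was 0.102 without ago1-10 replicate 2 and 0.145 without ago1-11 replicate 2. It was 0.0692 to 0.118 for 13903_at, and 0.0550 to 0.0968 for BZIP34, without any 1 of ago1-10 replicates 1 and 2 and ago1-11 replicates 2 and 3. For AT1G11850 it was 0.0635 without ago1-10 replicate 2, and for sks16 0.0502 without ago1-10 replicate 1. With the ago1-10 pair of uncertain age exchanged, 14 of the 71 were called. The share of all tested probe sets called with the pair exchanged is not given here.

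The allele difference itself changed with age in 1 of the 71, AT1G11850 (0.327% of all tested called higher and 0.18% lower). Its ago1-11 minus ago1-10 difference was larger at 21 days than at 9 days by 2.43 ± 0.57, adjusted p = 0.0445.

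With age, 12 of the 71 rose between 9 and 21 days in ago1-10 (5.04% of all tested) and 4 fell (5.66%). In ago1-11, 9 rose (1.44%) and 2 fell (1.08%). In the wild types, taken as the mean over Ler and Col, 5 passed the threshold as higher at 21 days (4.99%) and 9 as lower (6.43%). These are the arrays whose values chose the members, so the wild-type values are a description and support nothing. The median change over the 71 was 0.07 in ago1-10 (-0.01 over all tested), 0.15 in ago1-11 (0.01) and -0.05 in the wild types (-0.01).

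In ago1-11, 1 of the 4 arrays at 9 days (replicate 4) had the strain code of the 21-day arrays. The alleles share no array, and 8 probe sets were called higher at 21 days in both: 14704_s_at, 13212_s_at, 15846_at, 15616_s_at, 14832_at, 14636_s_at, 20227_s_at and 12642_at. They are 66.7% of the 12 in ago1-10 and 88.9% of the 9 in ago1-11, and none of them is listed in the annotation. The number of all tested probe sets called higher in both alleles is not given here, so the overlap is a description. With the ago1-10 pair of uncertain age exchanged, 4 of the 8 were called in both alleles, namely 14704_s_at, 15846_at, 20227_s_at and 12642_at. With replicate 4 as the only 9-day array of ago1-11, a setting chosen after the data were seen, the rises in ago1-11 were 2.18 to 7.25. That replicate was the lowest of the 4 arrays in all 8 probe sets. The setting therefore enlarges each rise and is no check on the overlap. The 14832_at arrays read 204, 674 and 548 in ago1-10, 147, 466 and 225 in ago1-11, 336, 489 and 309 in Ler (1), and 73.6, 120.0 and 103 in Col at 21 days and 54.02, 31.9, 52.997 and 82.7 in ago1-10, 95.1, 54.97, 54.6 and 35.9 in ago1-11, 229, 229.8 and 139 in Ler, and 59.3, 60.8 and 59.6 in Col at 9 days. At 9 days the arrays of both alleles overlapped Col, and at 21 days all of them were above Col. Its 21 minus 9 day difference was 2.98 ± 0.49, adjusted p = 9.59e-05, in ago1-10 and 2.11 ± 0.49, adjusted p = 0.0124, in ago1-11.

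For 20227_s_at the arrays read 85.4, 226 and 552 in ago1-10, 49.4, 161 and 109 in ago1-11, 75.5, 121 and 62.1 in Ler (1), and 35.6, 42.8 and 12.8 in Col at 21 days and 35.6, 2.45, 1.54 and 48.5 in ago1-10, 15.2, 5.79, 3.31 and 2.19 in ago1-11, 60.9, 48.8 and 35.7 in Ler, and 26.5, 15.6 and 15.4 in Col at 9 days. The rise was 4.25 ± 0.77, adjusted p = 0.000357, in ago1-10 and 3.90 ± 0.77, adjusted p = 0.0032, in ago1-11. At 9 days 6 of the 8 ago1 arrays were under the lowest Col array, at 15.4, while the 21-day ago1 arrays were all above the highest Col array. For 12642_at the rise was 1.96 ± 0.34, adjusted p = 0.000216, in ago1-10 and 1.39 ± 0.34, adjusted p = 0.018, in ago1-11, with arrays at 71.7, 100.04 and 66.3 in ago1-10, and 37.9, 16.2 and 39.8 in ago1-11 at 21 days against 33.1, 16.5, 12.1 and 20.04 in ago1-10, and 14.6, 9.79, 14.4 and 5.48 in ago1-11 at 9 days.

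The arrays of 13212_s_at, 14704_s_at and 15846_at are given above. For 13212_s_at the difference was 3.15 ± 0.74, adjusted p = 0.00467, in ago1-10 and 4.81 ± 0.74, adjusted p = 0.00012, in ago1-11. For 14704_s_at it was 3.96 ± 0.98, adjusted p = 0.00784, in ago1-10 and 4.47 ± 0.98, adjusted p = 0.00953, in ago1-11. For 15846_at it was 2.97 ± 0.79, adjusted p = 0.0122, in ago1-10 and 3.82 ± 0.79, adjusted p = 0.00493, in ago1-11. In 15616_s_at the 21-day arrays read 684, 539 and 779 in ago1-10, and 538, 628 and 616 in ago1-11, against 285, 83.8, 67.0 and 245 in ago1-10, and 114, 91.2, 68.4 and 49.7 in ago1-11 at 9 days, without overlap. The rise was 2.22 ± 0.64, adjusted p = 0.0218, in ago1-10 and 2.92 ± 0.64, adjusted p = 0.00953, in ago1-11. In 14636_s_at the 21-day arrays read 472, 655 and 1421 in ago1-10, and 225, 280.0 and 496 in ago1-11, against 347, 78.5, 71.6 and 224 in ago1-10, and 82.6, 81.5, 31.0 and 11.3 in ago1-11 at 9 days. The rise in 14636_s_at was 2.38 ± 0.67, adjusted p = 0.0192, in ago1-10 and 2.95 ± 0.67, adjusted p = 0.0118, in ago1-11.

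The array that was highest or lowest in a group was often, though not in every group, the same one across the 8 probe sets. In ago1-11 at 9 days replicate 4 was the lowest of 4 arrays in all 8, and in dcl1-9 replicate 1 was the highest of 4 in all 8. In Ler at 9 days replicate 2 was the highest in 7 and replicate 1 the lowest in 6, and in Ler (1) at 21 days replicate 2 was the highest in 7. In ago1-11 at 21 days, in contrast, no array was the highest in more than 3 or the lowest in more than 4, and in dcl1-9 no array was the lowest in more than 3. The part of this in the age differences was not tested.

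Falls with age were largest in AT1G11850 (15896_at), whose ago1-10 arrays read 34.5, 23.5 and 43.6 at 21 days, against 347, 336, 370.0 and 414 at 9 days. The difference was -3.43 ± 0.41, adjusted p = 5.46e-07, in ago1-10 and -0.995 ± 0.41, adjusted p = 0.243, in ago1-11, beside -1.15 ± 0.31 in the wild types. In ago1-10 18028_at fell by -2.001 ± 0.40, adjusted p = 0.00118, and BZIP34 (14975_at) by -1.67 ± 0.50, adjusted p = 0.0264. The BZIP34 call was lost without ago1-10 replicates 3 or 4 at 9 days or replicates 1 or 2 at 21 days, with adjusted p of 0.0777 to 0.194. It was also lost with 16 added before log2 (0.155) and with only the groups compared in the fit (0.141). In ago1-11 sks16 (12352_at) fell by -2.15 ± 0.60, adjusted p = 0.0457, with arrays at 0.832, 0.237 and 0.321 at 21 days, against 8.85, 13.9, 9.85 and 0.487 at 9 days. The sks16 call was lost without any 1 of ago1-11 replicates 1, 2 or 3 at 9 days or replicates 1, 2 or 3 at 21 days, with adjusted p of 0.0977 to 0.147, and with 16 added before log2 the difference was -0.53. Against replicate 4 alone, the 9-day array with the strain code of the 21-day arrays, it was -0.04, so the fall rests on the other 3 arrays.

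Only 19135_at was called lower with age in both alleles, by -0.97 ± 0.27, adjusted p = 0.0156, in ago1-10 and -0.94 ± 0.27, adjusted p = 0.0489, in ago1-11, beside -0.98 ± 0.20 in the wild types. Its arrays read 30.3, 42.1 and 19.6 in ago1-10, 22.3, 24.8 and 16.8 in ago1-11, 22.9, 35.7 and 28.2 in Ler (1), and 6.92, 12.4 and 13.7 in Col at 21 days and 69.4, 57.3, 59.9 and 49.6 in ago1-10, 52.4, 36.9, 45.2 and 34.1 in ago1-11, 40.4, 80.0 and 53.5 in Ler, and 22.3, 24.4 and 21.1 in Col at 9 days. The ago1-10 call was lost without replicate 3 at 21 days (-0.70, adjusted p = 0.129) and the ago1-11 call without any 1 of its 7 arrays (adjusted p of 0.0538 to 0.166). With only the groups compared in the fit it was lost in both (0.0519 in ago1-10 and 0.145 in ago1-11), with no filter in ago1-11 (0.0743), and in ago1-11 with replicate 4 as the only 9-day array (0.554).

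In the wild types the 21 minus 9 day difference was -2.61 ± 0.49 in BGLU21 (15954_at) and -3.21 ± 0.61 in 12364_at. The 12364_at arrays read 103, 176 and 68.6 in ago1-10, 119.7, 88.7 and 161 in ago1-11, 7.73, 18.4 and 3.17 in Ler (1), and 1.13, 3.13 and 1.95 in Col at 21 days and 123, 41.0, 29.8 and 71.9 in ago1-10, 21.5, 41.9, 31.3 and 2.19 in ago1-11, 96.3, 619 and 544 in Ler, and 4.12, 13.1 and 4.94 in Col at 9 days, so that Ler held the highest mean of the 4 groups at 9 days and no array above 18.4 in Ler (1) at 21 days. Also lower at 21 days was 17960_at, at -1.61 ± 0.36, with 7.64, 5.15 and 8.95 in Ler (1), and 1.84, 1.79 and 1.233 in Col against 25.5, 30.4 and 20.2 in Ler, and 4.81, 9.34 and 7.78 in Col at 9 days. Higher at 21 days in the wild types were 16629_at, by 1.91 ± 0.33, 12761_s_at, by 1.19 ± 0.27, 18669_at, by 0.76 ± 0.20, and 13284_at, by 1.02 ± 0.28. In 16629_at the difference was 1.12 ± 0.44, adjusted p = 0.0981, in ago1-10 and 1.04 ± 0.44, adjusted p = 0.26, in ago1-11, neither of which passed the threshold. In 13284_at the arrays read 129, 109 and 68.1 in Ler (1), and 34.2, 45.6 and 43.8 in Col at 21 days against 43.1, 52.9 and 49.2 in Ler, and 20.96, 24.4 and 14.3 in Col at 9 days, without overlap in either accession.

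**Figure D5:**
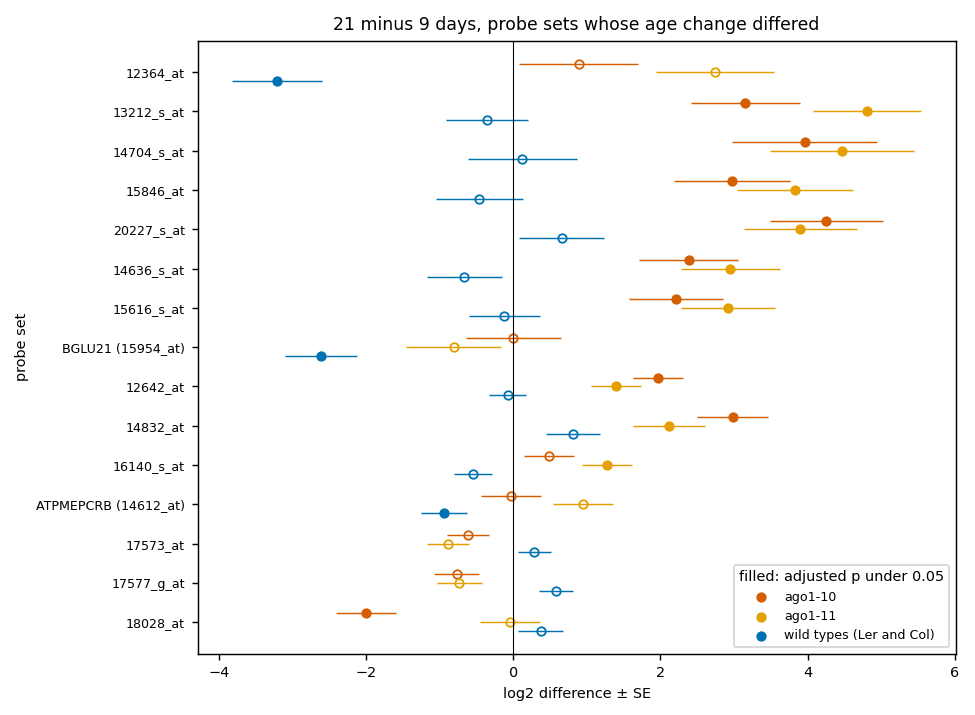
Log2 difference of 21 minus 9 days (horizontal axis, bars are SE) in ago1-10, ago1-11 and the mean of both wild types, for the 15 probe sets past the threshold in the difference between the ago1 alleles and the wild types; filled points have an adjusted p under 0.05, and those of the wild types rest on the arrays that chose the members. Points of both alleles lie to the right of those of the wild types in 12 probe sets and to the left in 3.

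The change with age in the ago1 alleles (their mean) was also set beside that in the wild types, in a contrast added after the data were seen. Its wild-type side consists of the arrays that chose the members, so its values are a description and support nothing. Past limma's threshold were 15 of the 71, with a higher value in the alleles in 12 (3.29% of all tested) and a lower one in 3 (3.27%). The largest was that of 12364_at, at 5.02 ± 0.83, for which the alleles changed by 0.89 in ago1-10 and 2.74 in ago1-11. All 8 probe sets that rose in both alleles were among the 12, beside 16140_s_at at 1.42 ± 0.35, BGLU21 (15954_at) at 2.21 ± 0.67, ATPMEPCRB (14612_at) at 1.40 ± 0.42 and 12364_at. Of the 3 with a lower value, 17577_g_at was at -1.34 ± 0.32, 18028_at at -1.39 ± 0.42 and 17573_at at -1.04 ± 0.30.

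Between 21 and 35 days, measured in ago1-10 alone, limma called 0 of the 71 higher (0.0164% of all tested) and 0 lower (0.0327%). An unadjusted p under 0.05 was found in 11 of the 71. The share of all tested at that level is not given here, so this count shows nothing particular to the members. All 21-day arrays had the strain code MR44 and all 35-day arrays MR49, so age and strain code cannot be told apart here. These results also depend on the ago1-10 arrays whose title number goes against their age. With them exchanged, 11 of the 71 were called higher and 7 lower between 21 and 35 days, 6 rose and 8 fell between 9 and 21 days, 25 passed the threshold in the age change of the alleles beside the wild types, and against Ler (2) 20 were higher and 14 lower. The rise of 13212_s_at in ago1-10 was then 1.96 with an adjusted p of 0.0610 and that of 14832_at 1.51 with an adjusted p of 0.0921. The shares of all tested probe sets with these arrays exchanged are not given here, so the counts show nothing particular to the 71. The age of these arrays cannot be settled from the labels.

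Genes of other lists that could differ between accessions were seldom measured here. Over all tested probe sets, limma called 5.15% higher and 5.45% lower in Ler than in Col at 9 days, and 2.49% higher and 3.99% lower in Ler (1) at 21 days. Of 25 glucosinolate genes, 2 had a tested probe set, UGT74B1 and AOP1, with Ler minus Col differences of 0.37 and 0.56 at 9 days and 0.44 and 0.64 at 21 days, and limma called 0. AOP3, whose probe set met the rule and was set aside, is also a glucosinolate gene and was not on that list. Of 12 defence genes 1 was measured, THI2.1, a thionin, with -0.01 and 1.59, not called. Of 7 flowering-time genes 1 was measured, GI, with 1.01 at 9 days (adjusted p = 0.0499) and 0.58 at 21 days (adjusted p = 0.383). Of 11 other NLR immune receptor genes, 0 had a tested probe set, nor did ERECTA, the gene whose mutant allele gives Ler its name.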

How the data were processed

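Per the submitters' processing notes, the authors used MAS5, and the deposited values read as linear signal intensity, with a version and scaling target not given in the sources used here. Cells with exactly 3 decimals (7913 of 305139, in 491 probe sets, 8 of them members) were read as values with a point between digit groups and multiplied by 1000. Kept were 6112 probe sets whose deposited signal was above 33.7% of the common median of 36.2 on at least 3 arrays. Arrays were then scaled to that median, and 1.2 was added before log2. One model with a mean per group was fitted over all 37 arrays with limma 3.58.1 in R 4.3.3 (eBayes with a trend after contrasts.fit), with Benjamini-Hochberg adjustment and a threshold of 0.05, and was tested on simulated data. Of simulated differences of 1 on the log2 scale it recovered 35% for ago1-10 between 21 and 35 days. The share was 49% for dcl1-9 against Ler (2) and highest, at 76%, for the wild-type ages. A low count is thus no sign that nothing changed. Tables and figures used Python 3.11.15, pandas 2.3.3, numpy 2.4.6 and matplotlib 3.10.9. The number of arrays limits the precision.

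The members and gene lists were chosen with earlier results of these data known. For members, comparisons against Ler (2), between alleles and between ages of an allele were tested. Comparisons that use Ler, Ler (1) or Col, whose arrays chose the members, were described, and where limma's threshold was applied to them (wild-type ages, and the age change of the alleles beside the wild types) the counts support nothing. For gene lists that are no members, Ler minus Col was tested. Named were all members with 1 gene, up to 4 called members in each direction per tested comparison by adjusted p, the 6 with the largest mean difference, and the 3 on each side of the threshold. Other probe sets, such as those in which Ler (2) lay below Col, were named after their values were seen. Gene symbols come from the platform annotation, brought up to date with the TAIR10.1 gene table. Alternatives were quantile and trimmed-mean scaling, 16 added before log2, no filter, only the groups compared, 3-decimal readings missing, each array left out, Ler (2) in the rule, 1 strain code (MR44 in ago1-10 and, added after the data were seen, MR57 in ago1-11), a replicate block and 2 arrays exchanged. A planned grouping of members by words of gene descriptions was not run, since the tables used here hold symbols.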

Additional observations from a re-analysis of the deposited data

Results flagged for a closer look

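Within groups of 4 arrays, 136 combinations of a named probe set and a group were examined for 1 array far from the other 3, and 6 were found, where chance gives about 1 in 20. In 14633_at, ago1-11 replicate 3 at 9 days read 245, against 546 to 573 on the other arrays. In BGLU21 (15954_at), ago1-11 replicate 4 at 9 days read 203, against 637 to 764, and Ler (2) replicate 1 read 25.1, against 126 to 171. In AT4G17470 (13949_at), ago1-10 replicate 1 at 9 days read 34.0, against 18.5 to 19.9. In 18669_at, ago1-10 replicate 2 at 9 days read 159.8, against 206 to 209.7. In AT1G11850 (15896_at), dcl1-9 replicate 1 read 183, against 100.6 to 111.

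The change between 9 and 21 days in the ago1 alleles, set beside that in the wild types, passed limma's threshold in 15 of the 71 probe sets. The contrast was added after the data were seen and its wild-type arrays chose the members, so the values are a description. Without a gene in the annotation, the differences were 5.02 in 12364_at, 4.34 in 13212_s_at, 4.09 in 14704_s_at, 3.86 in 15846_at, 3.42 in 20227_s_at, 3.34 in 14636_s_at, 2.69 in 15616_s_at, 1.75 in 12642_at, 1.74 in 14832_at and 1.42 in 16140_s_at, and -1.04 in 17573_at, -1.34 in 17577_g_at and -1.39 in 18028_at. With a gene, BGLU21 (15954_at) differed by 2.21 and ATPMEPCRB (14612_at) by 1.40. The difference between ago1-11 and ago1-10 changed between 9 and 21 days in 1 probe set, AT1G11850, by 2.43.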

How the results depend on the processing

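The 59 named results were recomputed 1010 times in all, each in several settings. The call was kept in 895 of these, lost in 115 and changed direction in 0, and 34 of the 59 kept it in every setting run. Among the 59 are results on the wild-type ages and on the age change beside the wild types. Their wild-type arrays chose the members, so keeping those calls supports nothing. With 16 added before log2, 26 probe sets met the rule that chose the 71, 1 was called in dcl1-9 against Ler (2) and 1 in ago1-10 between 21 and 35 days. With 3-decimal readings missing, 1 was called in dcl1-9 against Ler (2). With only the groups compared in the fit, 8 were called in dcl1-9 against Ler (2) and 2 between the alleles at 21 days. Exchanging ago1-10 replicate 3 at 21 days with replicate 1 at 35 days gave 14 between the alleles at 21 days, 18 between 21 and 35 days and 25 in the age change. Quantile and trimmed-mean scaling kept every count within 1.5 times. Counts in this section stand without the share of all tested probe sets in the same setting. They show how the calls depend on the setting and nothing particular to the members.

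Leaving out each array in turn gave 65 to 98 probe sets that met the rule. In dcl1-9 against Ler (2), 1 to 2 were called, with 1 without Ler (2) replicates 1 or 3 or dcl1-9 replicates 1, 3 or 4. In ago1-10 against Ler (2), 18 to 32 were called, lowest without ago1-10 replicate 2, and in ago1-11, 10 to 15, with 10 without ago1-11 replicates 1 or 3 or Ler (2) replicates 3 or 4. Between the alleles at 9 days 4 to 18 were called, lowest without ago1-11 replicate 4, with 6 without ago1-10 replicate 1 or ago1-11 replicate 1 and 9 without ago1-10 replicates 2 or 3. At 21 days 2 to 9 were called, with 2 without ago1-10 replicate 2 and 3 without ago1-10 replicate 1 or ago1-11 replicate 2. With age, 9 to 15 were called in ago1-10 (lowest without 9-day replicate 3), 5 to 9 in ago1-11 (5 without 9-day replicate 4, 6 and 7 without 21-day replicates 1 and 2), 11 to 16 in the wild types, 11 to 22 in the age change and 0 to 2 in ago1-10 between 21 and 35 days, with 2 without 35-day replicate 1 and 1 without 21-day replicates 1 or 3 or 35-day replicate 2. The causes were not tested.

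For the numbers 1, 2 and 3 that dcl1-9 and Ler (2) arrays share, deviations from the group means correlated at 0.18, 0.11 and 0.06. With no other pairs set beside them, these values cannot tell whether the numbers pair the arrays. The main fit did not pair them. A fit with the replicate block called 2 of the 71, BGLU21 and 14633_at, as did the fit without it.

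No gene is listed for 49 of the 71, both Col means are near background in 32, where the size of a difference depends on the constant, and the age of 2 ago1-10 arrays is uncertain.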
